A study of Mus musculus with 11 samples.

Results

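T cells and natural killer (NK) cells were followed in the joint lining through 10 of their genes, Cd3e, Cd4, Cd8a, Il2rb, Foxp3, Ctla4, Icos, Nkg7, Gzmb and Prf1, out of 18804 coding genes measured. The 10 were taken by symbol, and all 10 were in the deposited table. The RNA came from the synovial membrane, which lines the joint cavity, of DBA/1 mice. This inbred strain readily develops CIA (collagen-induced arthritis), a joint inflammation that follows immunisation with collagen. There were 11 libraries in 4 groups: CIA on a high-fat diet (n = 3), sham on a high-fat diet (n = 2), CIA on the regular diet (n = 3) and sham on the regular diet (n = 3). The labels give no age, no sex, no day of sampling and no description of the sham procedure. They do not say whether the replicates, lettered a, b and c, were separate mice, and p-values then reflect no more than the spread among the libraries, which may be technical. The growth notes give a regular diet for all samples, while the treatment labels give the high-fat diet for 5, and the groups here follow the treatment labels. The series asked whether obesity alters this arthritis.

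T cells recognise antigen through the T cell receptor, which signals through the CD3 chains. CD4 marks helper and regulatory T cells and CD8 marks T cells that can kill, while NK cells kill without an antigen receptor of this kind. Killing by both rests on perforin, which makes pores in the target cell, and on granzymes, which enter it. In CIA, CD4+ T cells help the B cells that make antibodies against collagen, and regulatory T cells, which need Foxp3, restrain the response.

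The dissected tissue carried its own markers, with Prg4, the lubricin gene of synovial lining, at 3976 to 20707 CPM (counts scaled to library size) over the 11 libraries. Total counts were 13677638 to 17631167 per library. On the first principal component of all tested genes, which held 53.7% of the variance, regular-diet CIA b lay at 64.7, apart from regular-diet CIA a at -24.4 and c at -40.6. The high-fat CIA libraries lay at 50.4 to 122 there, and the sham libraries at -63.9 to -20. Regular-diet CIA b is therefore given by name throughout.

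All 10 genes were rare. Together they held 0.001596% of all counts, which is 2814 counts over the 11 libraries. Values of 3 counts or fewer, equal to 0.160 to 0.239 CPM depending on the library, were taken as near zero. In high-fat CIA 0 of 30 gene-by-library values were near zero, against 6 of 20 in high-fat sham. In regular-diet CIA 3 of 30 were, against 13 of 30 in regular-diet sham. Foxp3 and Ctla4 were near zero in 5 libraries each, Cd3e in 4, Nkg7 and Gzmb in 3 each and Cd8a in 2. Cd4, Il2rb, Icos and Prf1 were above 3 counts in every library. A count of 0 occurred 3 times, for Cd3e and Gzmb in regular-diet sham b and for Foxp3 in high-fat sham b. Sham synovium thus held most of the near-zero values, 19 of 22.

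All 10 genes passed the filter on low counts, but 7 of them (Cd3e, Cd8a, Foxp3, Ctla4, Nkg7, Gzmb and Prf1) would not have passed on the sham libraries alone. Levels of different genes were compared on the TPM scale, which divides by transcript length. Cd4 had the highest mean TPM in both CIA groups, at 6.54 ± 4.21 in high-fat CIA and 3.47 ± 3.54 in regular-diet CIA (SD, n = 3 each). Nkg7 was second in high-fat CIA at 4.26 ± 4.88, followed by Il2rb at 3.91 ± 1.76 and Cd3e at 3.26 ± 1.10 (SD, n = 3). These neighbours lay within each other's spread. Cd8a was last of the 10 in both CIA groups, at 0.66 ± 0.483 in high-fat CIA and 0.427 ± 0.318 in regular-diet CIA (SD, n = 3 each). Nkg7 headed both sham groups, but in high-fat sham its TPM was 6.99 in replicate a and 0.35 in replicate b. Fewer cells of a type and less RNA per cell cannot be told apart in such bulk tissue.

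**Figure D1:**
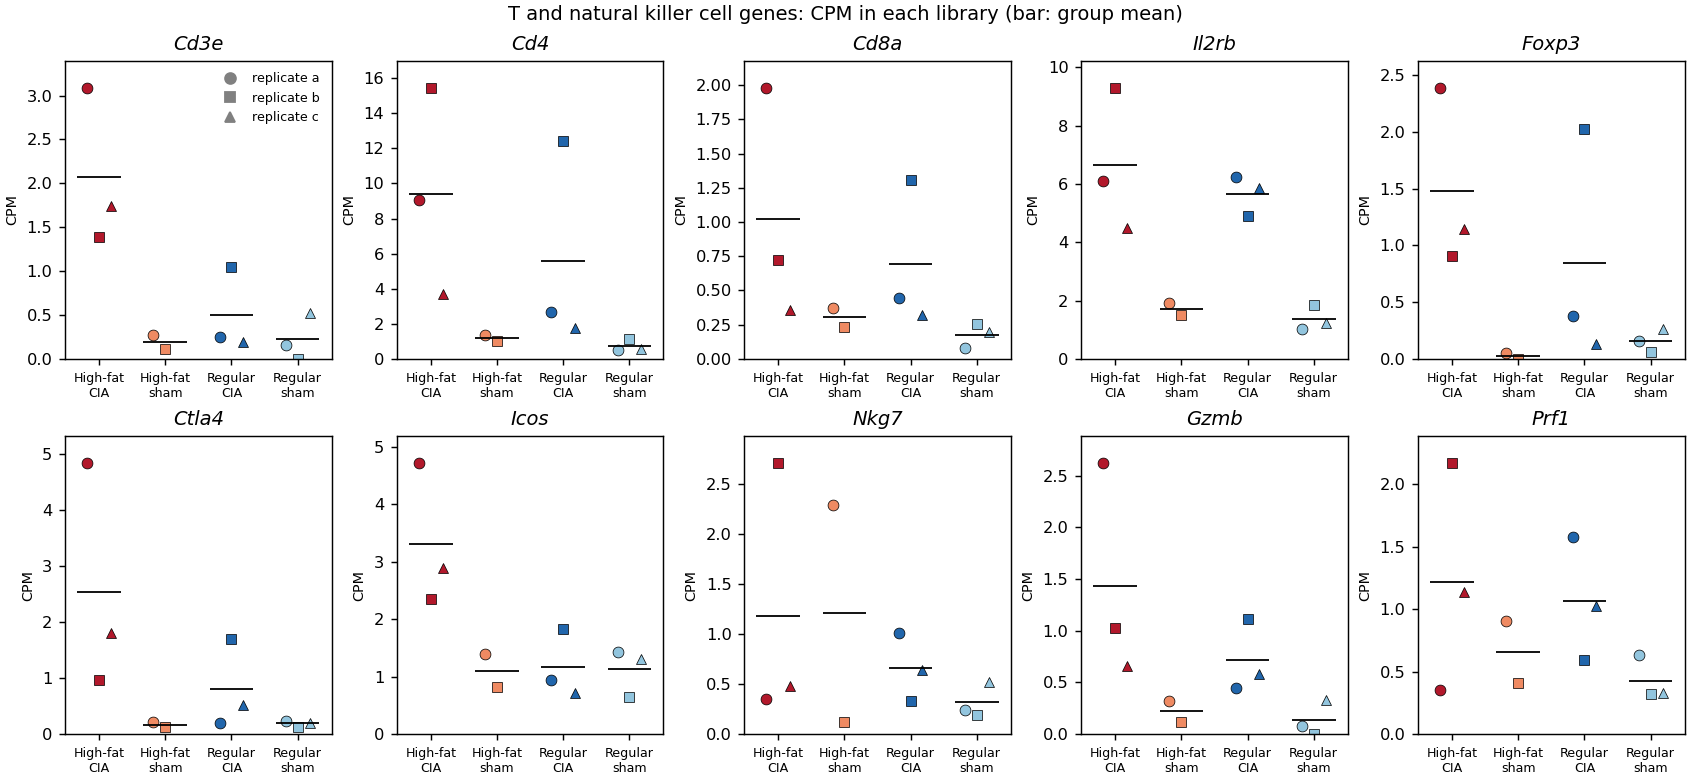
CPM (counts scaled to library size, linear axis from 0) of each of the 10 genes in each library, by group, with a bar at the group mean and marker shapes for replicates a, b and c. High-fat CIA replicate a was highest of its group for 6 genes and replicate b for 4, and in regular-diet CIA replicate b was highest for 7.

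Promoters are shown for 4 genes, the regulatory T cell genes Ctla4 and Foxp3, the granzyme gene Gzmb and the granule gene Nkg7, since the first 3 were higher in CIA over both diets and Nkg7 did not pass. They are RefSeq sequences of GRCm38.p6, from 250 bases before to 50 after the gene's start, on the gene's strand, and they come from the reference mouse rather than from DBA/1. RefSeq promoters were matched for 7 of the 10 genes, Cd3e, Cd8a, Foxp3, Ctla4, Nkg7, Gzmb and Prf1. Capitals mark matches on either strand to 5 short motifs, the NFAT core GGAAA, the Runx site TGTGGT, the AP-1 site TGANTCA, the STAT site TTCNNNGAA and the T-box core TCACAC. NFAT and AP-1 act below the T cell receptor, STAT factors act below cytokine receptors such as the interleukin-2 receptor, and Runx and T-box factors act in killer T cells and NK cells.
Ctla4, chr1:60908775-60909074, plus strand: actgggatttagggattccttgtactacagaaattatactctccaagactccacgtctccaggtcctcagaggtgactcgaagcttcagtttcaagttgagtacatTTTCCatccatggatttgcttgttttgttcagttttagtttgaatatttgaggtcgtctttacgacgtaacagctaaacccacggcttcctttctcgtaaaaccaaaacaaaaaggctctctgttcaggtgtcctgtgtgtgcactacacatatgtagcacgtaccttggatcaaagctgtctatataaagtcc
Foxp3, chrX:7579426-7579725, plus strand: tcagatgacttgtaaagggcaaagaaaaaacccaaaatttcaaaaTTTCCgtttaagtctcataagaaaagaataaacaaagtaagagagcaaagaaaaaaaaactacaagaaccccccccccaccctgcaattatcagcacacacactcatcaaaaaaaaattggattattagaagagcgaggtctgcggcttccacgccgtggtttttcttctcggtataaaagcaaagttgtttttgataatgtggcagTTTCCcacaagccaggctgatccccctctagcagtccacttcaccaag
Gzmb, chr14:56262285-56262584, minus strand: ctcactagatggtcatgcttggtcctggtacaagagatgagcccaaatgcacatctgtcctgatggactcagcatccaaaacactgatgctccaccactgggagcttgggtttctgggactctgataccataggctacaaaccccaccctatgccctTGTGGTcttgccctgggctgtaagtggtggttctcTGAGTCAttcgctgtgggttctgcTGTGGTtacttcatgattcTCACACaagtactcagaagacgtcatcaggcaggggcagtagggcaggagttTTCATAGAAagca
Nkg7, chr7:43436888-43437187, plus strand: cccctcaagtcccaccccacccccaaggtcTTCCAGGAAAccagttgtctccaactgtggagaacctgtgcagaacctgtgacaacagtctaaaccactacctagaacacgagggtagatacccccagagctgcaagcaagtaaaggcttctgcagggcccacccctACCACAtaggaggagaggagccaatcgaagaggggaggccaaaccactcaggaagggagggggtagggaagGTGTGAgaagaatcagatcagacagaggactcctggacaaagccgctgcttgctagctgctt
Gzmb held 2 Runx matches and 1 match each to AP-1, STAT and T-box, and none to the NFAT core. Nkg7 held 1 match each to the NFAT core, Runx, STAT and T-box, with the NFAT and STAT letters overlapping. In the windows shown of Ctla4 and Foxp3 the matches were to the NFAT core, 1 in Ctla4 and 2 in Foxp3. RefSeq gives Foxp3 a further start, whose promoter is not shown and held 1 match to the NFAT core and 1 to the STAT site. With 1 promoter for each of the 7 genes, that of Foxp3 as shown, 5 held the NFAT core, 3 the Runx site, 1 the AP-1 site, 2 the STAT site and 2 the T-box core. With the further Foxp3 promoter, 3 of the 7 genes held the STAT site. Over 32851 RefSeq promoters of the same 300 bases, the shares were 61.3% for the NFAT core, 16.8% for Runx, 7.81% for AP-1, 8.3% for STAT and 14.5% for T-box. These are matches of letters and not measured binding.

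On the high-fat diet 3 of 10 genes rose, Il2rb, Foxp3 and Ctla4, at a Benjamini-Hochberg adjusted p under 0.05 in edgeR's quasi-likelihood test. Of all 14892 genes tested on that diet 5.06% rose. As the mean of both diets, 5 of 10 rose, Cd4, Il2rb, Foxp3, Ctla4 and Gzmb, against 13% of all genes tested. Of these 5, Foxp3, Ctla4 and Gzmb met the filter on low counts through the CIA libraries. Foxp3 and Ctla4 are also among the 3 on the high-fat diet, so both counts are descriptions. Before adjustment, 7 of 10 had a p under 0.05 on the high-fat diet and 7 of 10 in the mean, against 30.8% and 39.2% of all genes tested. On the regular diet 0 of 10 passed, and 0.0269% of all genes tested did. At an unadjusted p under 0.05 there were 6 of 10 on that diet (17.3% of all genes tested), and DESeq2 called 2 as higher, Cd4 and Il2rb, where it called 3.12% of all genes with an adjusted p. Of these comparisons the mean of both diets contains the other pair, so their counts are not separate evidence.

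The median log2 fold change of the 10 genes was 2.30 on the high-fat diet, 1.96 on the regular diet and 2.11 as the mean of both, while that of all genes tested was 0.02, 0.06 and 0.04. The fitted change was above 0 for 9 of 10 genes on the high-fat diet, with Nkg7 at -0.04, against 51.1% of all genes tested, and for 10 of 10 on the regular diet, against 55.3%. All CIA libraries lay above all sham libraries for 7 of 10 genes on the high-fat diet, where 27.5% of all genes tested did so. On the regular diet this held for 4 of 10 genes, Cd4, Cd8a, Il2rb and Gzmb, against 12.2% of all genes tested. Across both diets together it held for 3 of 10 genes, against 4.75%. These figures are descriptions. Cd3e, Cd8a, Foxp3, Ctla4, Nkg7, Gzmb and Prf1 would not have passed the filter on low counts in the sham libraries alone. Summed CPM of some other cell types also differed between CIA and sham. The groups overlapped for neutrophil markers on the high-fat diet and for skeletal muscle markers on the regular diet. Neutrophil markers summed to 836 to 5045 CPM in high-fat CIA, 23.7 to 1131 in high-fat sham, 258 to 1040 in regular-diet CIA and 41.2 to 163 in regular-diet sham, and all 6 of them lay above 0 in each diet's fit. Adipocyte markers (4 genes) summed to 236 to 1015 CPM in high-fat CIA, against 3375 to 3927 in high-fat sham, and to 1178 to 4300 in regular-diet CIA, against 4320 to 4929 in regular-diet sham. Skeletal muscle markers (4 genes) summed to 1.33 to 16.3 CPM in high-fat CIA, against 38.4 to 129 in high-fat sham, and to 1.83 to 5.76 in regular-diet CIA, against 1.90 to 693 in regular-diet sham, where replicate c was the highest. Their part in the result was not tested. B cell markers (7 genes) overlapped between CIA and sham on both diets. They summed to 6.46 to 24.0 CPM in high-fat CIA and 9.11 to 48.6 in high-fat sham. On the regular diet they summed to 9.77 to 35.5 CPM in CIA and 8.35 to 29.2 in sham. In the fit 1 of the 7 lay above 0 on the high-fat diet and 2 on the regular diet.

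**Figure D2:**
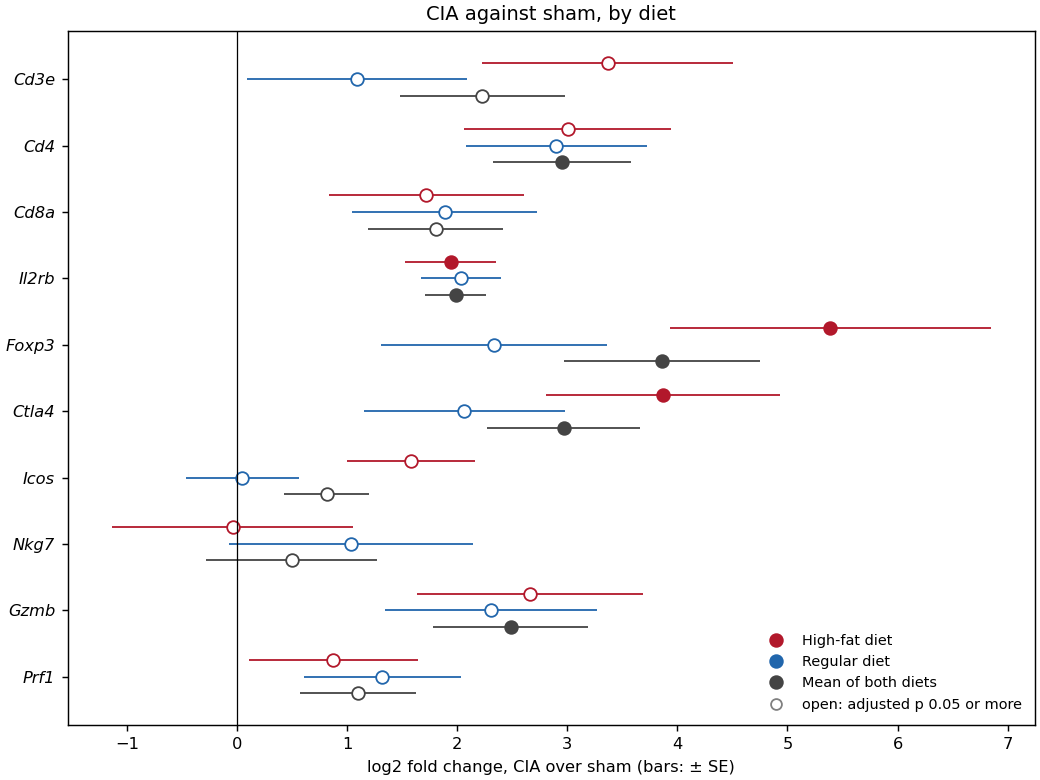
Log2 fold change of CIA over sham (horizontal axis, bars ± SE) for each gene on the high-fat diet, on the regular diet and as the mean of both, with filled points where the adjusted p was under 0.05. The filled points are Il2rb, Foxp3 and Ctla4 on the high-fat diet and Cd4, Il2rb, Foxp3, Ctla4 and Gzmb in the mean, with Nkg7 on the high-fat diet at -0.04.

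Among the T cell identity genes, Cd4 (6:124864693-124888247, gene ID 12504), the co-receptor of helper and regulatory T cells, was higher in all 6 CIA libraries than in all 5 sham libraries. It had 9.08, 15.4 and 3.72 CPM in high-fat CIA a, b and c, against 1.34 and 0.99 in high-fat sham a and b. In regular-diet CIA a, b and c it had 2.65, 12.4 and 1.74 CPM, against 0.48, 1.14 and 0.59 in regular-diet sham. The groups did not overlap on either diet, and regular-diet CIA b was the highest of its group. Cd4 rose over both diets by 2.95 ± 0.63 log2 units (SE, adjusted p = 0.0124 in edgeR). Without high-fat sham a or b that p was 0.0548 and 0.079. The change was 3.01 ± 0.94 on the high-fat diet (adjusted p = 0.0656) and 2.90 ± 0.82 on the regular diet (adjusted p = 0.181), where it was 1.55 without CIA b.

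Cd3e (9:44998735-45009663, gene ID 12501), a signalling chain of the receptor found on all T cells, had 3.08, 1.39 and 1.74 CPM in high-fat CIA a, b and c, against 0.27 and 0.12 in high-fat sham. On the regular diet it had 0.25, 1.05 and 0.19 CPM in CIA a, b and c, against 0.16, 0 and 0.52 in sham. All high-fat CIA libraries lay above high-fat sham, while on the regular diet the groups overlapped and sham c exceeded CIA a and c. The log2 fold change was 3.37 ± 1.14 on the high-fat diet (adjusted p = 0.0801 in edgeR) and 1.09 ± 1.00 on the regular diet (adjusted p = 0.591). Without regular-diet CIA b the regular-diet value was -0.04, so its direction rested on that library.

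Cd8a (6:71373427-71379171, gene ID 12525), a chain of the killer T cell co-receptor, had 1.98, 0.72 and 0.36 CPM in high-fat CIA a, b and c, against 0.37 and 0.23 in high-fat sham. On the regular diet, CIA a, b and c had 0.44, 1.31 and 0.32 CPM, against 0.08, 0.25 and 0.20 in regular-diet sham. High-fat CIA c lay just below high-fat sham a, and the regular-diet groups did not overlap. As the mean of both diets the log2 fold change was 1.80 ± 0.61 (adjusted p = 0.0563 in edgeR).

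Il2rb (15:78479256-78511621, gene ID 16185), the receptor chain shared by interleukin-2 and interleukin-15 that NK cells and activated T cells carry, lay above every sham level in all 6 CIA libraries. It had 6.11, 9.28 and 4.50 CPM in high-fat CIA a, b and c, against 1.92 and 1.52 in high-fat sham. In regular-diet CIA it had 6.25, 4.91 and 5.85 CPM, against 1.03, 1.84 and 1.25 in regular-diet sham. Regular-diet CIA b was here the lowest of its group. Il2rb rose by 1.94 ± 0.41 log2 units on the high-fat diet (adjusted p = 0.026 in edgeR) and by 1.99 ± 0.28 over both diets (adjusted p = 0.00562). On the regular diet its change was 2.03 ± 0.36 (adjusted p = 0.136). The high-fat call was lost without high-fat CIA b (adjusted p = 0.059), high-fat sham a (0.128) or high-fat sham b (0.261), and the call over both diets without high-fat sham b (0.0568).

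Foxp3 (X:7579676-7595243, gene ID 20371), the transcription factor that defines regulatory T cells, was nearly absent from high-fat sham. It had 2.39, 0.90 and 1.14 CPM in high-fat CIA a, b and c, against 0.05 and 0 in high-fat sham a and b. Regular-diet CIA a, b and c had 0.38, 2.03 and 0.13 CPM, against 0.16, 0.06 and 0.26 in regular-diet sham. The high-fat groups did not overlap, while on the regular diet CIA b stood far above the rest and CIA c fell within the sham range. Summed over libraries, high-fat CIA held 75 rounded counts and high-fat sham 1, a ratio per total count of 53.0 with a 95% exact interval of 9.22 to 2120 that covers counting error only. Foxp3 rose by 5.39 ± 1.46 log2 units on the high-fat diet (adjusted p = 0.0441 in edgeR), a value that depends on the prior count because sham was near zero. It rose by 3.86 ± 0.89 over both diets (adjusted p = 0.016). The high-fat call held with regular-diet CIA b or c left out and was lost without each of the other 9 libraries, with adjusted p of 0.0557 to 0.304. The call over both diets was lost without high-fat sham a (0.0543) or b (0.0892). Its counts were not whole in 10 libraries, and in RefSeq it overlaps Flicr and Ccdc22, whose reads could be shared with it.

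Ctla4 (1:60909025-60915832, gene ID 12477), the inhibitory receptor that regulatory and activated T cells carry, ran a, c, b from high to low in high-fat CIA. Foxp3, Cd3e and Icos ran in that order too. Ctla4 had 4.83, 0.96 and 1.80 CPM in high-fat CIA a, b and c, against 0.21 and 0.12 in high-fat sham. In regular-diet CIA it had 0.19, 1.70 and 0.51 CPM, against 0.24, 0.13 and 0.20 in regular-diet sham. The high-fat groups did not overlap, and regular-diet CIA a lay within the sham range. Ctla4 rose by 3.87 ± 1.06 log2 units on the high-fat diet (adjusted p = 0.0462 in edgeR) and by 2.97 ± 0.70 over both diets (adjusted p = 0.017). The high-fat call held with regular-diet CIA a or b left out and was lost without each of the other 9 libraries, with adjusted p of 0.0525 to 0.311. The call over both diets was lost without high-fat sham a (0.0618) or b (0.0944).

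Icos (1:60960773-61000322, gene ID 54167), a costimulatory receptor of activated and follicular helper T cells, lies 44940 bases from Ctla4 on chromosome 1. It had 4.71, 2.35 and 2.88 CPM in high-fat CIA a, b and c, against 1.39 and 0.82 in high-fat sham. Regular-diet CIA a, b and c had 0.95, 1.83 and 0.71 CPM, against 1.43, 0.63 and 1.31 in regular-diet sham. The regular-diet groups lay over each other, while the high-fat groups were apart. The log2 fold change was 1.58 ± 0.58 on the high-fat diet (adjusted p = 0.101 in edgeR) and 0.05 ± 0.51 on the regular diet (adjusted p = 0.971). Icos was above 3 counts in all 5 sham libraries, whereas its neighbour Ctla4 was near zero in 4 of them.

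Of the killing genes, Gzmb (14:56258836-56262334, gene ID 14939), which encodes granzyme B, had 2.62, 1.02 and 0.66 CPM in high-fat CIA a, b and c, against 0.32 and 0.12 in high-fat sham. In regular-diet CIA it had 0.44, 1.11 and 0.58 CPM, against 0.08, 0 and 0.33 in regular-diet sham. Every CIA library lay above every sham library of both diets. Gzmb rose over both diets by 2.48 ± 0.70 log2 units (adjusted p = 0.0315 in edgeR), with 2.66 ± 1.02 on the high-fat diet (adjusted p = 0.113) and 2.31 ± 0.96 on the regular diet (adjusted p = 0.261). The call over both diets was lost without regular-diet sham a (0.0729) or b (0.0502) or high-fat sham a (0.0782) or b (0.141).

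Prf1 (10:61297751-61304684, gene ID 18646), which encodes perforin, had 0.35, 2.17 and 1.14 CPM in high-fat CIA a, b and c, against 0.91 and 0.41 in high-fat sham. On the regular diet, CIA a, b and c had 1.58, 0.59 and 1.03 CPM, against 0.64, 0.32 and 0.33 in regular-diet sham. The groups overlapped on both diets, in high-fat CIA through replicate a and in regular-diet CIA through replicate b, the libraries in which most T cell genes were highest. As the mean of both diets the log2 fold change was 1.10 ± 0.53 (adjusted p = 0.149 in edgeR).

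Nkg7 (7:43437138-43438246, gene ID 72310), a granule membrane gene of NK cells and killer T cells, had 0.35, 2.71 and 0.48 CPM in high-fat CIA a, b and c, against 2.30 and 0.12 in high-fat sham a and b. Levels were 1.01, 0.33 and 0.64 CPM in regular-diet CIA a, b and c, against 0.24, 0.19 and 0.52 in regular-diet sham. High-fat CIA b and high-fat sham a stood far above the other 9 libraries, which ranged from 0.117 to 1.01 CPM. The log2 fold change was -0.04 ± 1.10 on the high-fat diet (adjusted p = 0.985 in edgeR) and 1.03 ± 1.11 on the regular diet (adjusted p = 0.648). The high-fat value was 3.27 without high-fat sham a and -1.53 without high-fat CIA b, so a single library set its direction. The same pair of libraries was highest in marrow granulocyte precursor genes, whose 5 markers summed to 413 CPM in high-fat CIA b and 312 in high-fat sham a, against 2.68 to 54.0 elsewhere. Mpo, a neutrophil granule enzyme made in marrow, reached 236 and 173 CPM there. Both libraries exceeded all the others for 1 of the 10 genes, Nkg7, for 2 of the 42 tested genes of the T and NK cell lists described further on, Cd3d and Ubash3a, and for 1.28% of all genes tested. With both left out, Nkg7 changed by 1.76 log2 units on the high-fat diet, a setting chosen after seeing the data that leaves 1 high-fat sham library. The part of marrow cells in these values was not tested further.

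**Figure D3:**
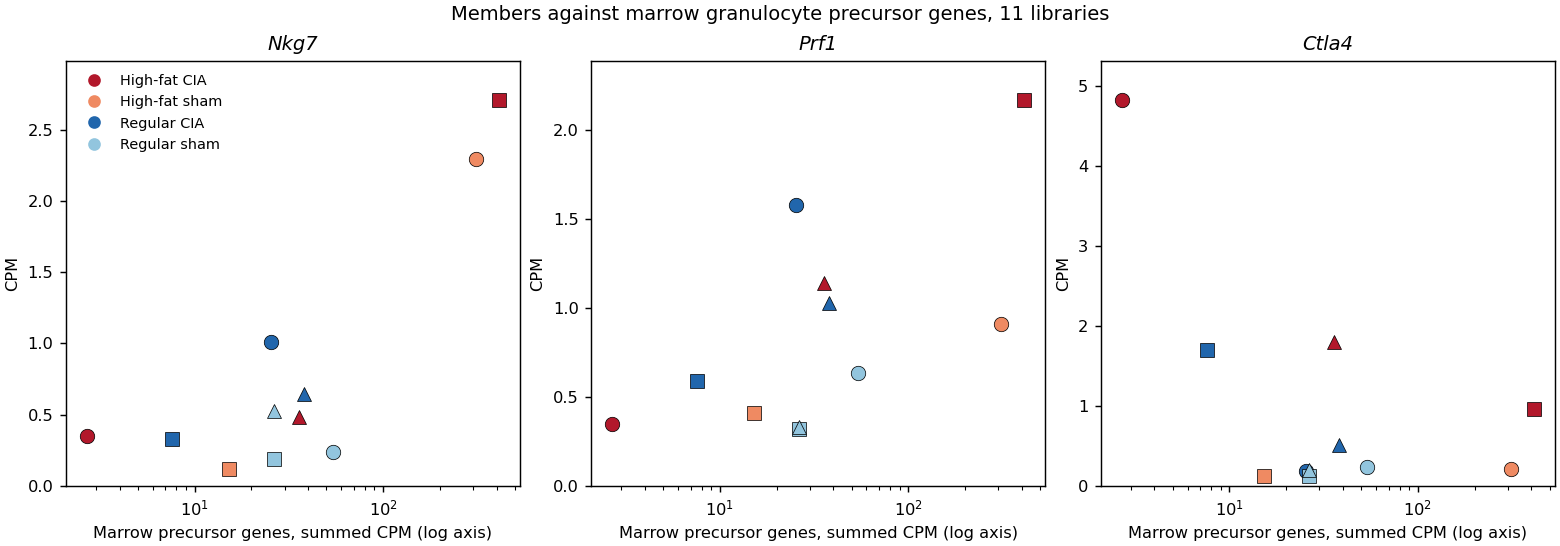
CPM of Nkg7, Prf1 and Ctla4 (vertical axes, linear) against the summed CPM of 5 marrow granulocyte precursor genes (horizontal axis, log scale) in 11 libraries, coloured by group with circles, squares and triangles for replicates a, b and c. Nkg7 was highest in the 2 libraries at 413 and 312 CPM, whereas Ctla4 was highest, at 4.83 CPM, in the library with the lowest sum, 2.68 CPM.

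Within the CIA groups the genes fell into different orders of libraries. In regular-diet CIA, replicate b was highest for 7 genes, Cd3e, Cd4, Cd8a, Foxp3, Ctla4, Icos and Gzmb, and lowest for the other 3, Il2rb, Nkg7 and Prf1, each of which ran a, c, b from high to low. In high-fat CIA, replicate a was highest for 6 of those 7 genes, Cd4 being the exception, and replicate b was highest for Cd4, Il2rb, Nkg7 and Prf1. Without regular-diet CIA b the regular-diet log2 fold change was 1.05 for Cd8a, 0.63 for Foxp3 and 0.90 for Ctla4, against 1.89, 2.33 and 2.06 with it. Replicate c was highest for 0 of 10 genes in either CIA group. With 3 libraries a group, these orders are descriptions without a test.

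Ratios between genes within a library do not depend on its scaling, and 5 were compared between CIA and sham with an exact two-sided permutation test within diets (200 arrangements, smallest possible p 0.005, adjusted over the 5). The ratio of Cd4 to Cd8a was higher in CIA by 1.11 log2 units (exact p = 0.03, adjusted p = 0.15), so it did not pass after adjustment. Its log2 values were 2.18 to 4.36 in high-fat CIA and 1.77 to 1.96 in high-fat sham, without overlap. They were 2.32 to 3.22 in regular-diet CIA and 1.44 to 2.12 in regular-diet sham, where the separation rests on adding 0.5 to each count. Regular-diet sham a held 6 Cd4 counts and 1 Cd8a count, and regular-diet CIA c held 27 and 5. Without the added 0.5 the regular-diet groups overlap. In summed counts there were 9.12 Cd4 counts per Cd8a count in high-fat CIA against 3.82 in high-fat sham, and 8.09 in regular-diet CIA against 4.13 in regular-diet sham. Relative to Cd3e, Foxp3 differed by 0.80 log2 units (exact adjusted p = 0.363), Ctla4 by 0.12 (0.85), Gzmb by 0.21 (0.844) and Il2rb by -0.38 (0.844). The last 2 means join opposite directions, with Gzmb at -0.79 on the high-fat diet and 1.21 on the regular diet, and Il2rb at -1.38 on the high-fat diet and 0.62 on the regular diet. A ratio to Cd3e in sham rests on 0 to 8 counts of Cd3e, which leaves it imprecise. The ratio of Cd4 to Cd8a in sham rests on 1 to 7 counts of Cd8a and is imprecise too.

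Diet was compared within CIA and within sham mice. In CIA, 0 of 10 genes passed in edgeR between the high-fat and the regular diet, where 3.95% of all genes tested did, and 2 of 10 had an unadjusted p under 0.05 (23.8% of all genes tested). DESeq2 called 1 as higher, Icos, and 5.16% of all genes with an adjusted p. The fitted difference was above 0 for 10 of 10 genes (47.6% of all genes tested), from 0.19 to 2.05 log2 units, with a median of 0.82 against -0.03 for all genes tested. Markers of some other cell types also differed by diet in CIA. Macrophage markers summed to 1057 to 1329 CPM on the high-fat diet against 626 to 1016 on the regular diet. Adipocyte markers summed to 236 to 1015 against 1178 to 4300, while B cell markers overlapped. The part of these cell types in the difference was not tested. Every high-fat CIA library exceeded every regular-diet CIA library for 2 of 10 genes, Cd3e and Icos, against 8.66% of all genes tested. Cd3e differed by 2.05 ± 0.89 log2 units (adjusted p = 0.199 in edgeR), Ctla4 by 1.65 ± 0.78 (0.233) and Icos by 1.51 ± 0.51 (0.111). Regular-diet CIA b weighed on this comparison. Without it 5 of 10 genes passed as higher, as did 10.1% of all genes tested, among them Cd3e (adjusted p = 0.0446), Ctla4 (0.0342) and Icos (0.0256). That library was the highest of its group for Cd3e, Ctla4 and Icos, so leaving it out by itself widens their differences. With any 1 of the other CIA or regular-diet sham libraries left out, 0 of 10 genes passed.

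In sham mice 0 of 10 genes passed between the high-fat and the regular diet in edgeR, as did 0% of all genes tested, and 0 of 10 had an unadjusted p under 0.05 (7.82% of all genes tested). DESeq2 called 0 of the 10 there and 0.758% of all genes with an adjusted p. The difference ranged from -2.25 to 1.90 log2 units. The interaction, the CIA effect on the high-fat diet minus that on the regular diet, ranged from -1.07 to 3.05 log2 units. None of the 10 passed in edgeR (lowest adjusted p 0.989), 0% of all genes tested did, and 0 of 10 had an unadjusted p under 0.05, against 4.26%. In DESeq2, 0 of the 10 passed and 0.146% of all genes with an adjusted p did. A gene that passed on the high-fat diet and not on the regular diet was thus not shown to differ between diets.

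Other genes of the same cells and their partners were read from 4 lists. Their counts stand beside all genes tested, of which 5.06% rose on the high-fat diet, 0.0269% on the regular diet and 13% over both. List genes low in sham, such as Cd6, met the filter on low counts through the CIA libraries, so the lists' counts are descriptions. Of 21 genes of T cell receptor signalling, 17 were tested, and on the high-fat diet 3 rose, Cd3g, Cd6 and Il7r, while 0 rose on the regular diet and 8 over both diets. The median log2 fold change was 1.47 on the high-fat diet and 1.34 on the regular diet. Cd3g, a further CD3 chain, had 4.54, 3.44 and 3.54 CPM in high-fat CIA a, b and c, against 0.32 and 0.18 in high-fat sham, a rise of 3.90 ± 0.90 log2 units (adjusted p = 0.0313 in edgeR). Cd6, a surface receptor of T cells, rose by 4.58 ± 1.05 (0.0303), with 0.721 to 2.21 CPM in high-fat CIA against 0 to 0.107 in high-fat sham. Il7r, the receptor of the survival cytokine interleukin-7, rose by 2.35 ± 0.61 (0.0409). Lck, the kinase that starts receptor signalling, rose over both diets by 1.56 ± 0.42 (0.0271). Tcf7, a transcription factor of resting T cells, had 5.18 to 11.1 CPM in high-fat CIA and 9.35 to 11.4 in high-fat sham, and 0.05 ± 0.32 on the regular diet (0.954). Cd3e had 0.12 to 0.27 CPM in high-fat sham, and which cells carried Tcf7 was not tested.

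Of 15 genes of activation, checkpoints and regulatory T cells, 12 were tested, and 2 rose on the high-fat diet, 0 on the regular diet and 6 over both. Pdcd1, the checkpoint receptor PD-1, had 1.86, 1.45 and 1.08 CPM in high-fat CIA a, b and c, against 0.21 and 0.23 in high-fat sham, a rise of 2.67 ± 0.62 log2 units (adjusted p = 0.0315 in edgeR). Tnfrsf9, the costimulatory receptor 4-1BB, rose by 4.27 ± 1.15 (0.0437), with 12.6 CPM in high-fat CIA a and 2.47 and 1.50 in b and c, against 0.32 and 0.23 in high-fat sham. Il2ra, the alpha chain of the interleukin-2 receptor and a marker of regulatory T cells, did not pass on either diet. It had 3.72 to 6.17 CPM in high-fat CIA and 6.14 to 8.06 in high-fat sham, and its change on the regular diet was -0.26 ± 0.30 (0.68). Foxp3 had 0 to 0.05 CPM in high-fat sham, and which cells carried Il2ra was not tested. Havcr2, an inhibitory receptor that myeloid cells also carry, rose over both diets by 2.53 ± 0.54 (0.0122) and reached 65.8 CPM in high-fat CIA a.

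Of 19 NK and cytotoxic genes, 13 were tested, and 1 rose on the high-fat diet, near the share of all genes tested. The regular-diet count was 0, and 6 rose over both. Klrk1, the activating receptor NKG2D, had 3.96, 5.30 and 3.06 CPM in high-fat CIA a, b and c, against 1.39 and 0.70 in high-fat sham, a rise of 1.96 ± 0.47 log2 units (adjusted p = 0.0328 in edgeR). Ncr1, the receptor NKp46 that marks NK cells, rose over both diets by 1.52 ± 0.42 (0.0285), and Ctsw, a protease of killer lymphocytes, by 1.67 ± 0.40 (0.0185). Il18rap, a chain of the interleukin-18 receptor, rose over both diets by 3.66 ± 0.73 (0.0109) and reached 94.2 CPM in high-fat CIA b, against 1.58 to 7.59 in high-fat sham. It had 19.5 to 94.2 CPM in high-fat CIA, where Ncr1 had 0.582 to 2.11. Neutrophil markers summed to 5045 CPM in high-fat CIA b, and which cells carried Il18rap was not tested. Tbx21, the factor T-bet, had 0.721 to 2.23 CPM in high-fat CIA and 1.99 to 2.40 in high-fat sham, and -0.83 ± 0.50 on the regular diet (0.413). Ncr1 had 0.292 to 0.588 CPM in high-fat sham, and which cells carried Tbx21 was not tested. The NK marker list was low in every group but higher in CIA than in sham on both diets. Its summed CPM was 2.40 to 5.61 in high-fat CIA against 1.17 to 1.50 in high-fat sham. On the regular diet it was 3.60 to 4.84 in CIA against 1.27 to 2.03 in sham. Eomes and Klre1 within the list did not pass the filter and were not tested. They were each at 0 in 2 libraries and at most 0.663 CPM.

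Of 16 ligands and partner genes, 15 were tested, and 2 rose on the high-fat diet, 0 on the regular diet and 5 over both. Over both diets 1 also fell, and 23.8% of all genes tested passed in either direction. Il2rg, the receptor chain that pairs with Il2rb, had 123, 62.0 and 36.0 CPM in high-fat CIA a, b and c, against 11.9 and 8.70 in high-fat sham, a rise of 2.84 ± 0.68 log2 units (adjusted p = 0.0331 in edgeR). Srgn, the proteoglycan on which granzymes are stored and which myeloid cells also make, rose by 1.71 ± 0.44 (0.0398). Serpinb9, an inhibitor of granzyme B, rose over both diets by 0.59 ± 0.16 (0.0258), with 41.4 to 60.5 CPM in high-fat CIA. Il15ra, which presents interleukin-15 to cells with Il2rb, fell by 0.61 ± 0.16 over both diets (0.0261), with 33.4 to 35.4 CPM in high-fat CIA against 53.7 to 67.5 in high-fat sham. The high-fat calls of Cd3g, Cd6, Il7r, Pdcd1, Tnfrsf9, Klrk1, Il2rg and Srgn were each lost without high-fat CIA b, high-fat sham a or high-fat sham b, and in all under 5 to 8 of the 11 single omissions. Their highest adjusted p-values, without high-fat sham b, were 0.256 to 0.307. Over both diets the calls of Il18rap and Ctsw were lost without high-fat sham b alone, and that of Havcr2 without either high-fat sham library. Those of Lck, Ncr1, Il15ra and Serpinb9 were lost under 4, 6, 6 and 8 of the 11 omissions, high-fat sham a and b among them. Leaving out high-fat sham b leaves 1 high-fat sham library. Calls over both diets were then lost in all 4 lists and for nearly all other genes.

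**Figure D4:**
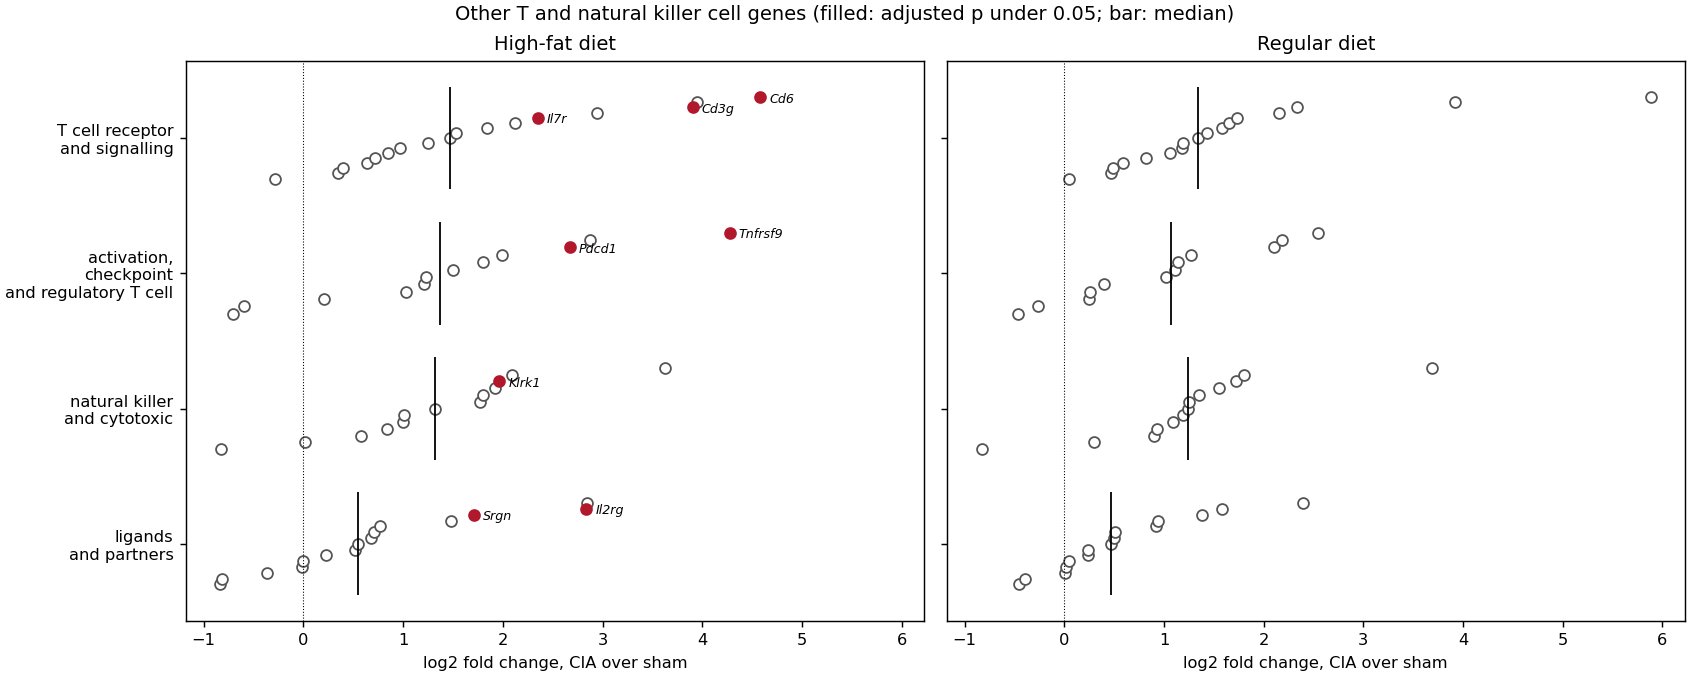
Log2 fold change of CIA over sham for the tested genes of 4 lists (1 point per gene, bar at the list's median) on the high-fat diet, left, and the regular diet, right, with filled, named points where the adjusted p was under 0.05. Of the tested genes 8 were filled on the high-fat diet and 0 on the regular diet, while the medians were alike, such as 1.47 and 1.34 for T cell receptor signalling.

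The authors' deposited table holds its own log2 fold changes and q-values for the same contrasts. In the authors' deposited table, 6 of 10 genes had a q under 0.05 between high-fat CIA and high-fat sham, Cd3e, Cd4, Il2rb, Foxp3, Ctla4 and Icos, against 19.7% of its genes with a q. In the authors' deposited table, 2 of 10 genes passed between regular-diet CIA and sham, against 2.5% of genes, Cd4 at 2.91 log2 units (q = 0.0269) and Il2rb at 2.04 (q = 0.000118). In the authors' deposited table, 0 of 10 genes passed between the diets, in CIA (3.9% of genes) or in sham (7.8% of genes). Gzmb stood at q = 0.0507 on the high-fat diet in the authors' deposited table, next to a value of 0.113 from edgeR.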

How the data were processed

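RNA was sequenced from synovial membrane of DBA/1 mice in 11 libraries; the kit's strandedness and the read counting are not given in the sources used here. Per the file headers, the authors deposited expected counts for 18804 coding genes (12% of values not whole, tolerance 0.001), FPKM and TPM, and for 4 comparisons a log2 fold change and a q-value (an adjusted p-value). Named in the submitters' processing notes are RSEM 1.2.12, Bowtie2 2.2.5, the build GRCm38.p6 and DESeq2 1.4.5. The start of 1.78% of genes in the table equals that of RefSeq for GRCm38.p6, so printed positions are RefSeq's, matched by NCBI gene ID for 18663 genes.

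Expected counts were rounded. Of all genes 458 had no count, and 1 line held no gene. edgeR (filterByExpr, TMM, glmQLFit robust, 1 mean per group, all 11 libraries) tested 14892 genes, and p-values were Benjamini-Hochberg adjusted over them, two-sided, with a threshold of 0.05. The SE is the absolute log2 fold change over the square root of F. CPM used TMM-scaled totals, and ratios used counts plus 0.5. Intervals cover counting error only, and replicates differed by more than it (chi-square per degree of freedom 18.4 to 266). The fit was run on simulated data with known fold changes, where its pass condition was set at a smaller spread than that of these libraries. Alternatives were DESeq2, RLE scaling, no filter, the replicate letter as a block, other offsets for ratios, TPM for ratios and leaving out each library; after seeing the data, both libraries highest in marrow precursor genes were left out together. The members and lists were chosen with earlier results of these data known. Named list genes were up to 4 called genes of the highest mean log2 CPM per list and comparison, or the 2 most abundant. Software: edgeR 4.0.16 and DESeq2 1.42.0 ran in R 4.3.3, and matplotlib 3.10.9, scipy 1.17.1, numpy 2.4.6 and pandas 2.3.3 in Python 3.11.15.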

Additional observations from a re-analysis of the deposited data

How the results depend on the processing

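Counts of 3 or fewer in 22 values limit what can be seen of these genes in sham. Leaving out 1 of the 2 high-fat sham libraries leaves 1, which is then assumed to vary like the other groups. RLE scaling and no filter moved no count of called members or genes by over 1.5 times.

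DESeq2 called 3254 genes between CIA and sham on the high-fat diet (6 members), 783 on the regular diet (2 members), 2000 between diets in CIA (1 member), 114 between diets in sham and 21 in the interaction. Libraries of the same letter in different groups had r of -0.426 to 0.463 (15 pairs, 5 over 0.1). With so few libraries a group, this cannot settle whether the letters pair them. With the replicate block 776 genes were called on the high-fat diet and 0 between diets in CIA, and Nkg7 on the high-fat diet was 0.32. With it Foxp3 (adjusted p = 0.069) and Ctla4 (0.0754) did not pass on the high-fat diet, Cd4 did (0.0452), and Gzmb did not pass over both diets (0.0562), so members called were 2 and 4. With both libraries highest in marrow precursor genes left out, 0 genes were called on either diet and between diets in CIA, 3 over both diets and 0 members on the high-fat diet or over both, and Nkg7 on the high-fat diet was 1.76.

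Leaving out 1 library gave 0 to 16 genes called on the regular diet, 0 to 3738 on the high-fat diet, 2 to 4347 over both, 0 to 3224 between diets in CIA and 0 to 6 in sham. Members called ranged from 0 to 6 on the high-fat diet (0 without high-fat CIA b, high-fat sham a or b; 6 without regular-diet CIA b), 0 to 7 over both (0 without high-fat sham b) and 0 to 5 between diets in CIA. The log2 fold change ranged from -0.038 to 2.58 for Cd3e and -0.43 to 0.24 for Icos on the regular diet, and for Nkg7 from -1.53 to 3.27 on the high-fat diet and -0.25 to 2.15 over both. The ratio to Cd3e ranged from -0.33 to 0.57 for Ctla4 and -0.88 to 0.30 for Il2rb. With an offset of 0.1 it was -0.21 for Ctla4, and on TPM -0.18 for Foxp3. The cause of these shifts was not tested.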
